A study of Homo sapiens with 6 samples.

Results

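The genes described here make, break down, move and regulate the polyamines: ODC1, AMD1, SRM, SMS, SAT1, SMOX, OAZ1, AZIN1, ARG2 and ATP13A2. They were taken by name, and every probe set annotated to exactly 1 of them was used, which gave 19 probe sets of the 54675 on the array for 10 of the 19775 genes with such a probe set. A further probe set shared between SAT1 and another gene was left out. The cells were LNCaP, an established line from a lymph node metastasis of a human prostate cancer that depends on androgen and carries a mutant androgen receptor. There were 3 cultures exposed for 48 h to 100 nM dihydrotestosterone (DHT), an androgen that binds its receptor more tightly than testosterone does, and 3 control cultures. Both had first spent 3 days in RPMI without phenol red, with 10% serum from which charcoal and dextran had removed steroids. The labels state neither whether the controls were given a vehicle nor how long they were kept after the 3 days. All cultures were of 1 cell line, and 1 array was run for each.

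Polyamines are small positively charged molecules that bind nucleic acids and are needed for growth. Ornithine is decarboxylated to putrescine, and aminopropyl groups taken from decarboxylated S-adenosylmethionine turn putrescine into spermidine and spermidine into spermine. Acetylation and oxidation run the path backwards, and antizyme holds ornithine decarboxylase in check. The prostate secretes spermine into seminal fluid in exceptional amounts, and in the mouse kidney ornithine decarboxylase is a classical target of androgen.

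Across the 10 genes the pathway did not move one way with DHT. ARG2, AMD1 and SAT1 rose, SRM and ATP13A2 fell, and ODC1, SMS, SMOX, OAZ1 and AZIN1 did not pass. These calls rest on 1 probe set per gene, the brightest, and on an adjusted p of 0.05 over all 14269 tested genes in limma. The 3 rises and 2 falls among 10 genes stand beside 6.95% of all tested genes called higher and 5.91% called lower. The median log2 fold change of the 10 was 0.15, and that of all tested genes was 0.021. On the level of probe sets, 17 of the 19 passed the filter on dim signals, and of these 6 rose and 1 fell, beside 5.09% of all 32768 tested probe sets higher, 5.25% lower and 10.3% in either direction. The DHT arrays all lay above the controls for 8 of the 17 and below them for 3, beside 15.0% and 13.8% of all tested probe sets, and 28.7% either way. For the 10 genes read from 1 probe set each, 7 had groups that did not overlap, beside 31.0% of all tested genes. All fold changes are DHT minus control on log2(signal + 16), and the added 16 makes changes of dim genes look smaller than they are. In bulk RNA of this kind, fewer cells with a transcript and less of it per cell cannot be told apart.

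The promoters of the genes that rose are shown next with those of SRM, which fell, and of ODC1, which did not pass, so that the start regions of genes with different responses can be read side by side. Each runs 5′ to 3′ from 250 bases before to 50 bases after a transcript start (RefSeq, GRCh38.p14). AMD1 has 3 listed windows, and 1 of the overlapping pair among them is printed. The printed AMD1 and ODC1 windows belong to starts inside the gene, and those at its annotated 5′ end are not printed. Capitals mark exact matches to CACGTG, the E-box bound by MYC with MAX, or to TGACGTCA, the cAMP response element.
ARG2, chr14:67619670-67619969, + strand: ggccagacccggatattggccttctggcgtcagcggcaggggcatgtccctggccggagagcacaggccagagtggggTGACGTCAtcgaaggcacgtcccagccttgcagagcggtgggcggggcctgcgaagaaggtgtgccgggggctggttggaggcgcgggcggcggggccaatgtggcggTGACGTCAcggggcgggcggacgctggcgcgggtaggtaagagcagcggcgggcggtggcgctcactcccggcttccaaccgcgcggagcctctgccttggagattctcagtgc
AMD1, chr6:110874535-110874834, + strand: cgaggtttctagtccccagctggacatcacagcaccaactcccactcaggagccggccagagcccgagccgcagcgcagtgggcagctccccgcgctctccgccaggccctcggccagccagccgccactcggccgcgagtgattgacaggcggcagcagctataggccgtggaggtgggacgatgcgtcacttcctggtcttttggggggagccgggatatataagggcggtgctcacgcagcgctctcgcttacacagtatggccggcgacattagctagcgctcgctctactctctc
SAT1, chrX:23782923-23783222, + strand: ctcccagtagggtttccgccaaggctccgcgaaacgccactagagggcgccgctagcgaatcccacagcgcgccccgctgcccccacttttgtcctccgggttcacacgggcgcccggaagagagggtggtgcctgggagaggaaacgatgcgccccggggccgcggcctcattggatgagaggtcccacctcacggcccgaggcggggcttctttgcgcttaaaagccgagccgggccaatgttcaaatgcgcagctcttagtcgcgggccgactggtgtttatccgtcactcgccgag
SRM, chr1:11059969-11060268, - strand: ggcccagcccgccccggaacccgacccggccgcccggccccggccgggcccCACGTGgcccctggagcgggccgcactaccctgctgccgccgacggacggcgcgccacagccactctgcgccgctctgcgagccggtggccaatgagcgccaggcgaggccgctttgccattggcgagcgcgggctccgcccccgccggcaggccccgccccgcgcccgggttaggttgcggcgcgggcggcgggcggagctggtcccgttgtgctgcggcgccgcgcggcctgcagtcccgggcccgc
ODC1, chr2:10447963-10448262, - strand: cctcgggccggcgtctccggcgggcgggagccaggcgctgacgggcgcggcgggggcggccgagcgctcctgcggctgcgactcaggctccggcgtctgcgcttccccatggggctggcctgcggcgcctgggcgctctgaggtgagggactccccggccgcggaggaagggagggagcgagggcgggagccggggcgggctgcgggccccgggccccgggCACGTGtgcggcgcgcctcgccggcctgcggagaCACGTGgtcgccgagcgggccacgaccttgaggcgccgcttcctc

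The RefSeq table held 11 windows for 8 of the 10 genes, with none listed for SMOX and AZIN1. ARG2 had 2 matches to TGACGTCA, at positions -172 and -64 (first base, with the start base as 1), and no other member window had one. The same motif is in 1.85% of all 35116 windows. SRM had 1 E-box, at -199, and the printed ODC1 window had 2, at -29 and 6, while 7.26% of all windows have at least 1. The other ODC1 window, at chr2:10448278-10448577, had no match to any motif searched. AGAACA, the hexamer that makes up each arm of an androgen response element, was in 0 of the 11 windows and in 14.8% of all windows. The full element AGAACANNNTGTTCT was in 0 of the 11 and in 0.00285% of all. Both strands were searched, and no match overlapped another. A match is a string of letters and was not tested as a binding site, and most androgen receptor sites are known to lie far from promoters.

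Some properties of the arrays moved with the treatment. The ratio of 3′ to 5′ signal was 1.77 ± 0.07 with DHT and 1.37 ± 0.05 in controls for ACTB, and 1.06 ± 0.05 with DHT and 0.904 ± 0.044 in controls for GAPDH (SD, n = 3 each). The mean log2 signal of 18 probe sets of hybridisation spikes was 10.2 ± 0.1 with DHT and 9.66 ± 0.11 in controls. Each of these 3 differences had p = 0.1 in a two-sided exact permutation test, the smallest that 3 against 3 arrays can give. The deposited scaling ties every array to the same average signal. Scaling to the spikes instead would bring the median log2 fold change of all genes to -0.51, and lower every gene below by about the same amount, so that directions given here are relative to the average transcript. What part RNA quality or spike signal has in the results was not tested. Of 10 markers of prostate luminal cells, 8 had a single-gene probe set and all 8 were above the filter. Their summed signal was 20430 to 21100 with DHT and 9464 to 9718 in controls. Over all tested genes 6.95% were called higher and 5.91% lower. Of the 8 markers, 4 rose, 2 fell (HOXB13 at -0.37 and KRT8 at -0.43, limma adjusted p = 0.0212 and 0.00574) and 2 did not pass. Among those that rose, KLK3, which encodes prostate-specific antigen and is a known androgen target, had signals of 9364, 8501 and 9091 with DHT, against 2398, 2265 and 1894 in controls (log2 scale 2.04 ± 0.09, SE; adjusted p = 4.03e-07 in limma). Both measured basal markers, KRT5 and KRT14, were below the filter, and among leukocyte markers PTPRC and CD14 were too. Above the filter were 3 of 4 stromal, 2 of 3 endothelial and 1 of 3 measured leukocyte markers. Of these, only COL1A1 passed, as lower (-0.54, limma adjusted p = 0.0186). It was the brightest stromal marker, with a mean signal of 132 with DHT and 198 in controls. The summed signal was 202.5 to 234 with DHT and 272 to 322 in controls for stroma, 200.2 to 262 with DHT and 191 to 204 in controls for endothelium, and 13.6 to 37.5 with DHT and 32.2 to 60.9 in controls for leukocytes.

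ARG2, the mitochondrial arginase that splits arginine into urea and ornithine and so supplies the pathway's starting material, had the largest rise of the 10. Its brighter probe set (203946_s_at) gave signals of 1878, 1953 and 1935 in the DHT cultures, against 985, 949 and 886 in the controls. The groups lay far apart, and the spread was small in both. The ratio of means was 2.04, or 1.02 ± 0.07 on the log2 scale (SE; adjusted p = 8.13e-06 in limma), and 99.4% of all tested genes had a log2 fold change at or below it. The dimmer probe set (203945_at) read 390, 323 and 332 with DHT, against 190, 192 and 136 in controls. That set moved alike, at 0.96 ± 0.13 (limma adjusted p = 0.000891 over probe sets). Of the 10 genes, ARG2 alone passed as higher when the arrays were scaled to the spikes, at 0.49 (limma adjusted p = 0.0018).

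AMD1, S-adenosylmethionine decarboxylase, makes the aminopropyl donor for both spermidine and spermine and is, with ODC1, a rate-limiting enzyme of the pathway. Its brighter probe set (201196_s_at) had signals of 3950, 4250 and 4134 with DHT, against 2451, 2501 and 2635 in controls. All DHT cultures lay well above all controls. The ratio of means was 1.63, or 0.70 ± 0.07 on the log2 scale (SE; adjusted p = 0.000118 in limma). The other probe set (201197_at) read 3386, 3561 and 3539 with DHT, against 2418, 2342 and 2359 in controls, 0.56 ± 0.07 as log2 fold change (adjusted p = 0.000436 over probe sets in limma). Both AMD1 probe sets thus passed, without overlap. With spike scaling neither did, at 0.17 (limma adjusted p = 0.164 over genes) and 0.028 (0.822 over probe sets).

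ODC1, ornithine decarboxylase, makes putrescine from ornithine and is the first committed step. It has 1 probe set (200790_at), with signals of 2986, 2869 and 2791 in DHT cultures, against 3118, 3353 and 3119 in controls. The DHT values all lay below the controls, but by little. The ratio of means was 0.902, the log2 fold change was -0.15 with a 95% interval of -0.30 to 0.005, and the gene did not pass (limma adjusted p = 0.208). The AMD1 interval, by contrast, was 0.54 to 0.85. With quantile normalisation ODC1 passed as lower, at -0.23 (limma adjusted p = 0.0147), and it did so with spike scaling, at -0.68. MYC, a transcription factor known to activate ODC1, rose on the same arrays with signals of 1514, 2225 and 1650 with DHT, against 1150, 1217 and 1116 in controls (log2 fold change 0.60 ± 0.12; limma adjusted p = 0.00726). MYC was not run with quantile normalisation, spike scaling or any other alternative, and a link to ODC1 was not tested.

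The aminopropyl transferases gave different values. SRM, spermidine synthase, had signals of 538, 552 and 420 with DHT (201516_at), against 793, 679 and 664 in controls. The groups did not overlap, as was so for 28.7% of all tested probe sets. SRM fell, at -0.49 ± 0.11 on the log2 scale (SE; adjusted p = 0.0136 in limma), and the controls were 1.41-fold higher. It did not pass without control replicate 1 (-0.41, limma adjusted p = 0.0515) or without an intensity trend in the variance (adjusted p = 0.102). With spike scaling SRM passed as lower at -1.02 (limma adjusted p = 3.08e-05), as did 60.9% of all tested genes. SMS, spermine synthase, had signals of 704, 679 and 598 with DHT (202043_s_at), against 612, 624 and 583 in controls. These overlapped, with a log2 fold change of 0.12 and a 95% interval of -0.06 to 0.30 (limma adjusted p = 0.411). With spike scaling SMS also passed as lower, at -0.41 (limma adjusted p = 0.0182).

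**Figure D1:**
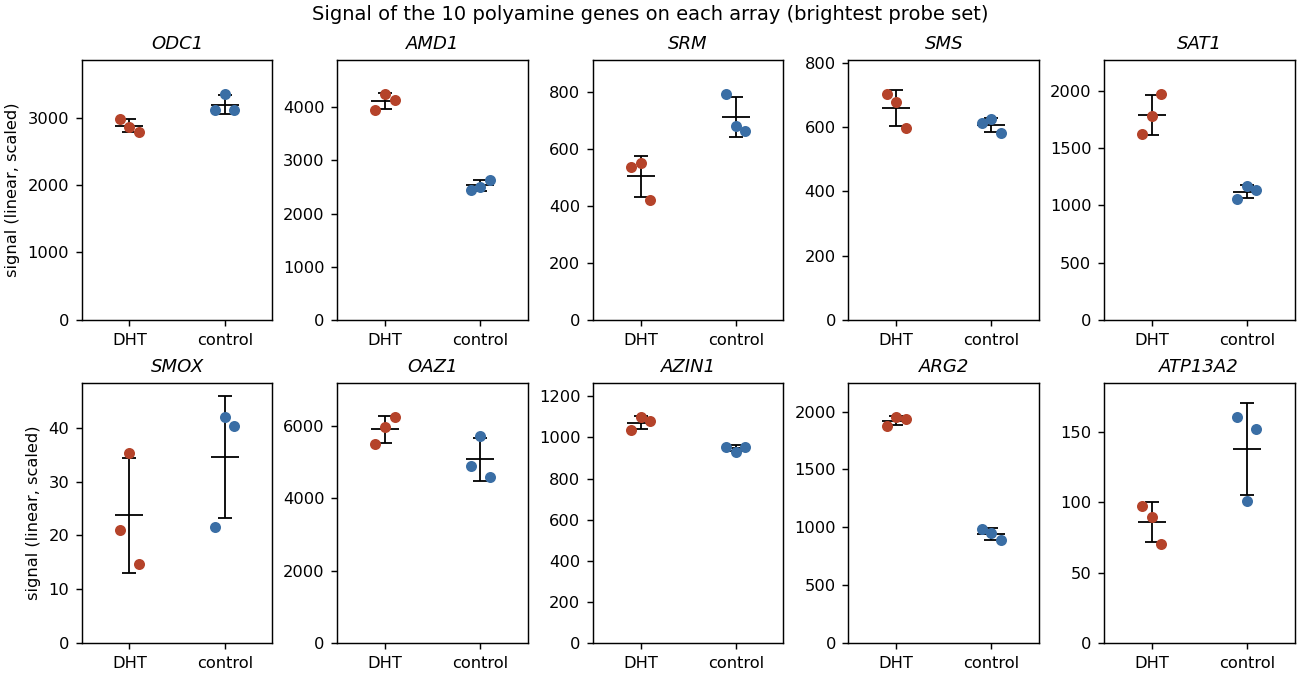
Signal on a linear scale starting at 0 (y axis) of the brightest probe set of each gene on the 3 DHT and the 3 control arrays; points are arrays, and bars the mean ± SD. ARG2, AMD1 and SAT1 lie higher with DHT, SRM and ATP13A2 lower, and SMS, SMOX and OAZ1 overlap.

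SAT1, spermidine/spermine N1-acetyltransferase, marks polyamines for oxidation or export and is the rate-limiting enzyme of breakdown. Its brightest probe set (210592_s_at) read 1621, 1781 and 1974 with DHT, against 1059, 1166 and 1137 in controls. The lowest DHT culture lay well above the highest control. SAT1 rose 1.60-fold, or 0.67 ± 0.08 on the log2 scale (SE; adjusted p = 0.000553 in limma). Probe set 203455_s_at also passed, with 1520, 1869 and 1646 with DHT, against 1097, 1137 and 1328 in controls (0.49 ± 0.10; limma adjusted p = 0.00755 over probe sets), but not without the intensity trend (adjusted p = 0.0849). The dimmest (213988_s_at) had 529, 606 and 557 with DHT, against 436, 467 and 528 in controls, and did not pass (0.24 ± 0.09; limma adjusted p = 0.136 over probe sets). The closest pair of values there was a DHT culture at 529 and a control at 528. With spike scaling the brightest SAT1 probe set did not pass (0.14, limma adjusted p = 0.295 over genes), and the others turned to -0.034 and -0.29.

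SMOX, spermine oxidase, turns spermine back into spermidine and releases hydrogen peroxide. It was close to the lower limit of what was tested. Its brightest probe set (210357_s_at) had signals of 21.0, 35.4 and 14.7 with DHT, against 21.6, 42.0 and 40.2 in controls, where 17.3 was the limit for a probe set's mean. The groups overlapped, with a log2 fold change of -0.36 and a wide 95% interval of -0.92 to 0.21 (limma adjusted p = 0.427). With spike scaling SMOX passed as lower, at -0.885 (limma adjusted p = 0.00836), as did 60.9% of all tested genes. The other SMOX probe sets were below the limit and were not tested. Probe set 1555680_a_at read 5.51, 5.17 and 5.69 with DHT, against 4.57, 3.33 and 20.1 in controls, and 217074_at read 2.95, 3.44 and 4.77 with DHT, against 2.24, 4.48 and 3.22 in controls.

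The antizyme arm did not pass. OAZ1 encodes antizyme, which binds ornithine decarboxylase, sends it to the proteasome without ubiquitin, and is itself made through a ribosomal frameshift that polyamines promote. Its brighter probe set (200077_s_at) had 5517, 5980 and 6250 with DHT, against 4897, 5736 and 4594 in controls. Control replicate 2 lay among the DHT cultures. The log2 fold change was 0.22 ± 0.09 (SE; limma adjusted p = 0.15), and without control replicate 2 the gene passed as higher at 0.32 (limma adjusted p = 0.0273), while with quantile normalisation it was at 0.086 (0.267). The other probe set (215952_s_at) had 4237, 4765 and 4465 with DHT, against 4766, 4941 and 4515 in controls, -0.079 as log2 fold change (adjusted p = 0.59 over probe sets in limma). With quantile normalisation that set passed as lower, at -0.18 (limma adjusted p = 0.0364 over probe sets). The OAZ1 probe sets differed in sign, and with spike scaling both were lower, at -0.30 and -0.61.

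AZIN1, antizyme inhibitor, resembles ornithine decarboxylase without its activity and frees the enzyme from antizyme. Its brightest probe set (212461_at) had 1036, 1099 and 1078 with DHT, against 955, 930 and 955 in controls. The groups did not overlap, as was so for 28.7% of all tested probe sets. The difference was small, at 0.18 ± 0.07 on the log2 scale (SE, limma adjusted p = 0.122). Probe set 201772_at had 711, 751 and 730 with DHT, against 776, 748 and 737 in controls (-0.043; limma adjusted p = 0.768 over probe sets). The dim 213747_at had 60.9, 61.0 and 110 with DHT, against 49.2, 58.9 and 66.2 in controls (0.30; limma adjusted p = 0.423 over probe sets), with DHT replicate 3 apart from the rest. With spike scaling the AZIN1 values were -0.35, -0.57 and -0.23.

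ATP13A2 is a lysosomal pump that carries polyamines out into the cytosol. Its single probe set (218608_at) had 97.7, 89.8 and 70.1 with DHT, against 161, 101 and 152 in controls. All DHT values lay below all controls, with DHT replicate 1 and control replicate 2 close together. ATP13A2 fell, with a log2 fold change of -0.58 ± 0.17 (SE), at an adjusted p of 0.0475 in limma over genes and 0.0546 over probe sets. This call is marginal. It was lost when any array except control replicate 2 was left out (limma adjusted p = 0.0602 to 0.162), and under 6 of 10 other processing settings, among them no intensity trend (0.136). With spike scaling, which those 10 leave out, ATP13A2 passed as lower at -1.11 (limma adjusted p = 0.000198), as did 60.9% of all tested genes.

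**Figure D2:**
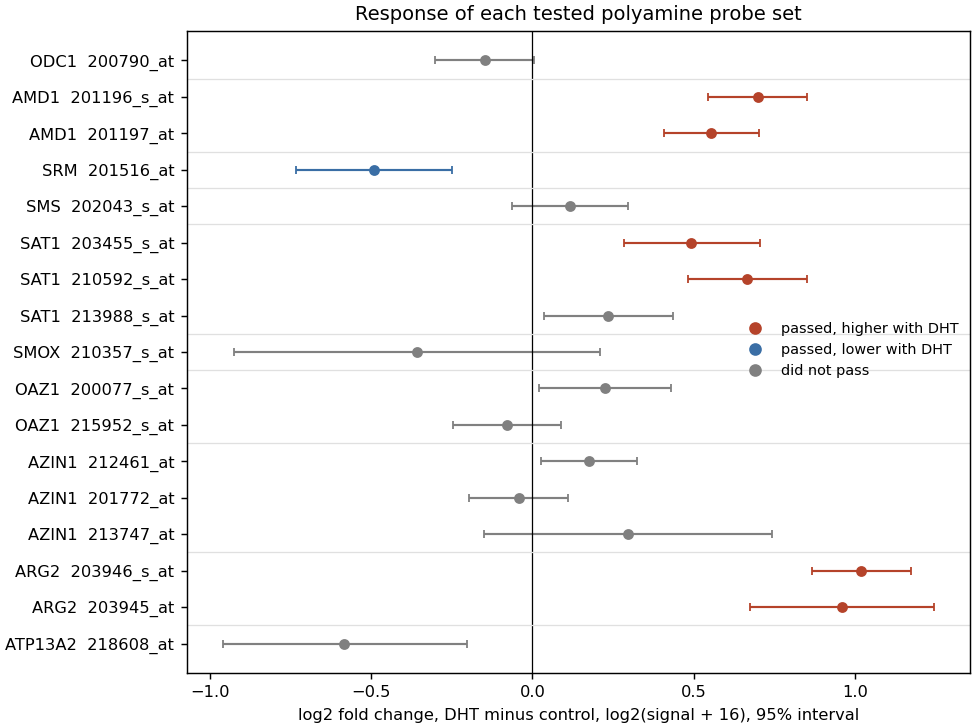
Log2 fold change of DHT minus control (x axis, log2 scale) of the 17 tested probe sets, with 95% intervals from limma; colour marks an adjusted p under 0.05 over probe sets. Both ARG2 and both AMD1 probe sets passed, 2 of 3 SAT1 probe sets did, and those of OAZ1 and AZIN1 lie on both sides of 0; ATP13A2 passed over genes only.

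Probe sets of one gene were also set against each other within each array. Of the 5 genes with 2 or more tested probe sets, the brighter minus the next differed in response by 0.30 on the log2 scale for OAZ1, 0.22 for AZIN1, 0.14 for AMD1, 0.17 for SAT1 and 0.06 for ARG2. For OAZ1 the within-array difference of the log2 signals was 0.40 ± 0.08 in DHT cultures and 0.09 ± 0.11 in controls (SD, n = 3 each). For AZIN1 it was 0.54 ± 0.01 with DHT and 0.32 ± 0.04 in controls. For AMD1 it was 0.23 ± 0.02 with DHT and 0.09 ± 0.07 in controls. In these 3 genes the groups did not overlap, and the two-sided exact permutation test gave p = 0.1, the smallest it can give, or 0.167 adjusted over the 5 genes. Such differences were not computed for other genes, so no share over all genes stands beside this count. What part the 3′ to 5′ ratios have in them was not tested. For SAT1 and ARG2 the groups overlapped (exact permutation p = 0.3 and 0.9). The design could not reach 0.05 here.

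**Figure D3:**
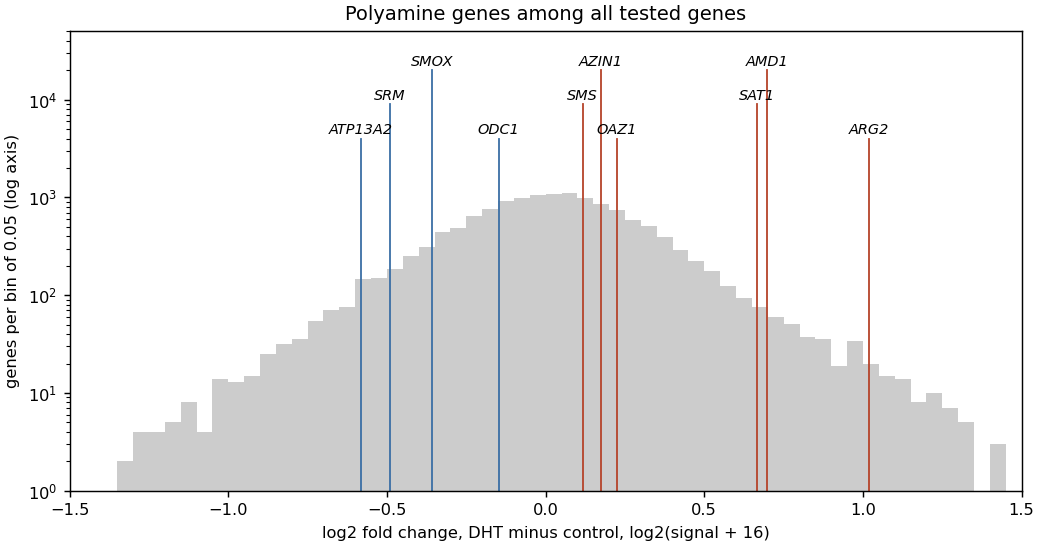
Number of tested genes (y axis, log scale) by log2 fold change of DHT minus control (x axis, log2 scale, middle of the range), with the 10 polyamine genes as lines (red above 0, blue below). ARG2 lies at 1.02 near the upper end, AMD1 and SAT1 at 0.70 and 0.67, and ATP13A2 at -0.58 is the lowest of the 10.

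The spread between arrays of a group differed among the genes. The coefficient of variation of the signal over the 17 tested probe sets lay between 2.05% and 44.8% in DHT cultures and between 1.49% and 32.7% in controls. The brightest ARG2 probe set had 2.05% with DHT and 5.30% in controls, and the ODC1 probe set had 3.40% with DHT and 4.24% in controls. The highest values belonged to the tested SMOX probe set, at 44.8% with DHT and 32.7% in controls. ATP13A2 had 16.5% with DHT and 23.5% in controls.

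The reactions that feed or use polyamines were read from 7 lists that also hold the 10 genes in their roles. The lists added 30 genes, of which 26 were tested, 2 were below the filter and 2 had no single-gene probe set. Of the 26, 4 rose and 3 fell, beside 12.9% of all tested genes called in either direction. Their median log2 fold change was 0.033, against 0.021 over all tested genes. These counts changed with single arrays, to 1 higher without DHT replicate 2, 2 higher without DHT replicate 3 or control replicate 3, and 1 lower without control replicate 1. With 1 array left out, the share of all tested genes called in either direction was also smaller, at 8.16% to 9.83%.

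Around ornithine, ARG2 and SLC7A1 were the 2 of 6 tested genes that rose, and none passed as lower. The shares over all tested genes were 6.95% higher and 5.91% lower. SLC7A1 imports arginine and other cationic amino acids. Its signals were 1122, 1160 and 1300.0 with DHT, against 955, 971 and 957 in controls. All DHT cultures lay higher, and groups did not overlap for 31.0% of all tested genes. The SLC7A1 rise was 0.31 ± 0.08 on the log2 scale (SE; adjusted p = 0.0216 in limma). It did not pass when any of 4 single arrays was left out (limma adjusted p = 0.0512 to 0.0886), with equal array medians (0.0723) or with spike scaling (-0.22).

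In the methionine cycle and the salvage of methylthioadenosine, the by-product of spermidine and spermine synthesis, 2 of 9 tested genes rose and 1 fell. The shares over all tested genes were 6.95% higher and 5.91% lower. ADI1, a dioxygenase of the salvage path, had 1609, 1827 and 1687 with DHT, against 1372, 1371 and 1248 in controls (0.36 ± 0.08; limma adjusted p = 0.011). ENOPH1, the enzyme one step before it, had 1096, 1045 and 1025 with DHT, against 912, 730 and 906 in controls (0.32 ± 0.09; limma adjusted p = 0.044). AHCY, which clears S-adenosylhomocysteine after methylation reactions, fell, with 1351, 1252 and 1242 with DHT, against 1683, 1577 and 1620 in controls (-0.34 ± 0.07; limma adjusted p = 0.00882). For all 3 the groups did not overlap, as was so for 31.0% of all tested genes. ENOPH1 did not pass with no filter, equal array medians or averaged probe sets. It passed when control replicate 1 was left out but not without any other single array (limma adjusted p = 0.0536 to 0.127), ADI1 did not without DHT replicate 2 (0.053) or when its probe sets were averaged (0.0599), and both were below 0 with spike scaling (-0.21 and -0.17).

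Spermidine is also the donor for hypusine, the modified residue of the translation factor eIF5A. EIF5A itself rose, with 1281, 1203 and 1079 with DHT, against 944, 777 and 842 in controls (0.47 ± 0.09; limma adjusted p = 0.00652), and was -0.059 with spike scaling. EIF5A has near-identical copies in the genome, which its probe set may also detect. DHPS, deoxyhypusine synthase, which carries out the first step of that modification, fell, with 350.5, 371 and 262 with DHT, against 483, 440 and 429 in controls (-0.45 ± 0.12; limma adjusted p = 0.0289). It did not pass with no filter on dim probe sets, without DHT replicate 3 or without any single control (single arrays left out, limma adjusted p = 0.0587 to 0.0925). The other tested genes of this list, EIF5A2 and DOHH, did not pass.

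In transport, ATP13A2 and SLC18B1 fell among 4 tested genes, and none rose, beside 5.91% of all tested genes lower and 6.95% higher. SLC18B1, a vesicular polyamine carrier, had 131, 140 and 151 with DHT, against 233, 182 and 193 in controls (-0.48 ± 0.12; limma adjusted p = 0.0192). The groups did not overlap, as was so for 31.0% of all tested genes. The call was lost when DHT replicate 1 or 2 or control replicate 1 was left out (limma adjusted p = 0.0544 to 0.0715). In breakdown, PAOX, which oxidises acetylated polyamines, had 0.26 with a 95% interval of -0.11 to 0.64 (limma adjusted p = 0.37). In antizyme control 0 of 5 tested genes passed in limma, with OAZ2, another antizyme, at -0.11 (limma adjusted p = 0.371), and 2 of the 5 had an unadjusted p under 0.05, as did 25.9% of all tested genes.

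**Figure D4:**
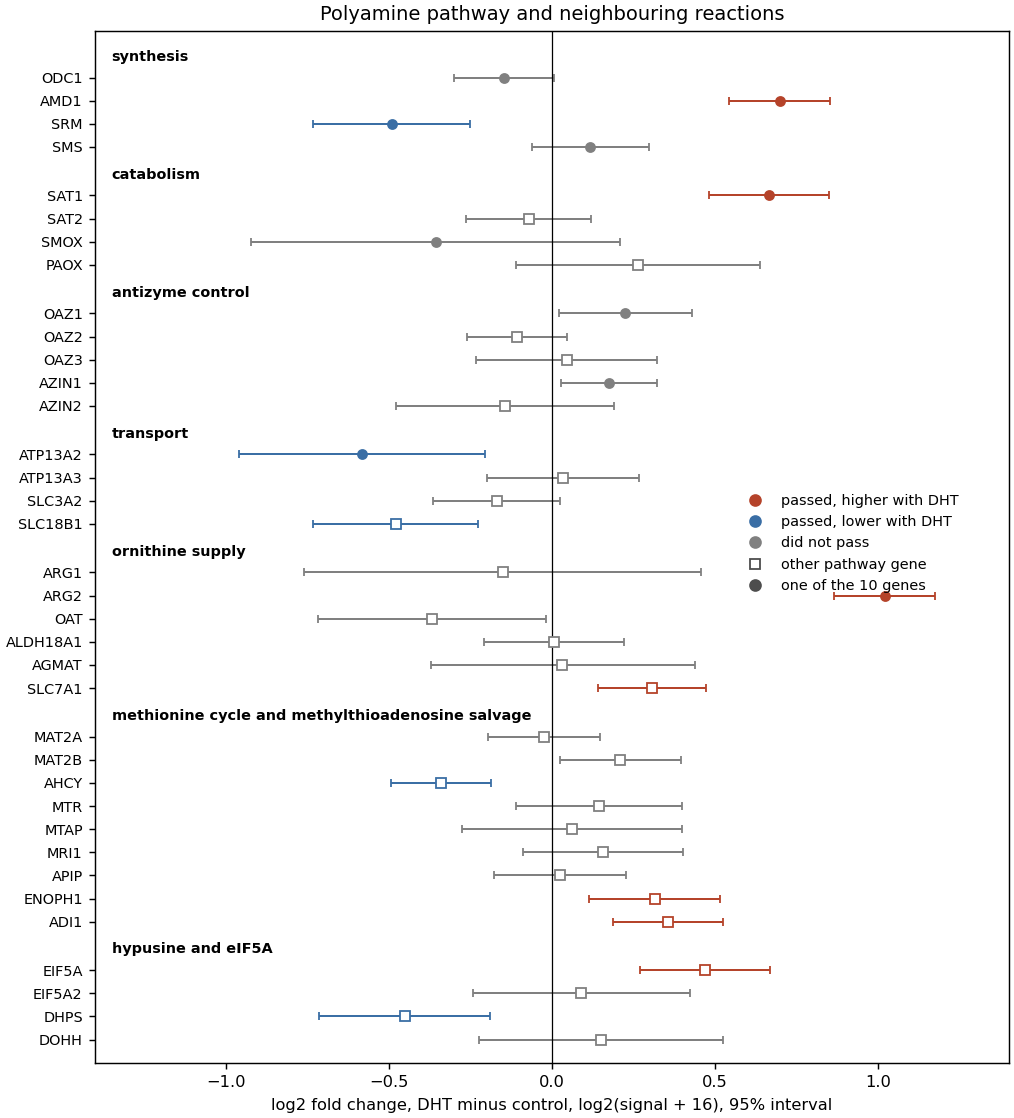
Log2 fold change of DHT minus control (x axis, log2 scale) with 95% intervals for the 36 tested genes of the 7 lists, grouped by role; filled circles are the 10 polyamine genes, open squares the other pathway genes, and colour marks an adjusted p under 0.05 over genes. ARG2, AMD1, SAT1, EIF5A, ADI1, ENOPH1 and SLC7A1 passed as higher, and SRM, ATP13A2, SLC18B1, AHCY and DHPS as lower.

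**Figure D5:**
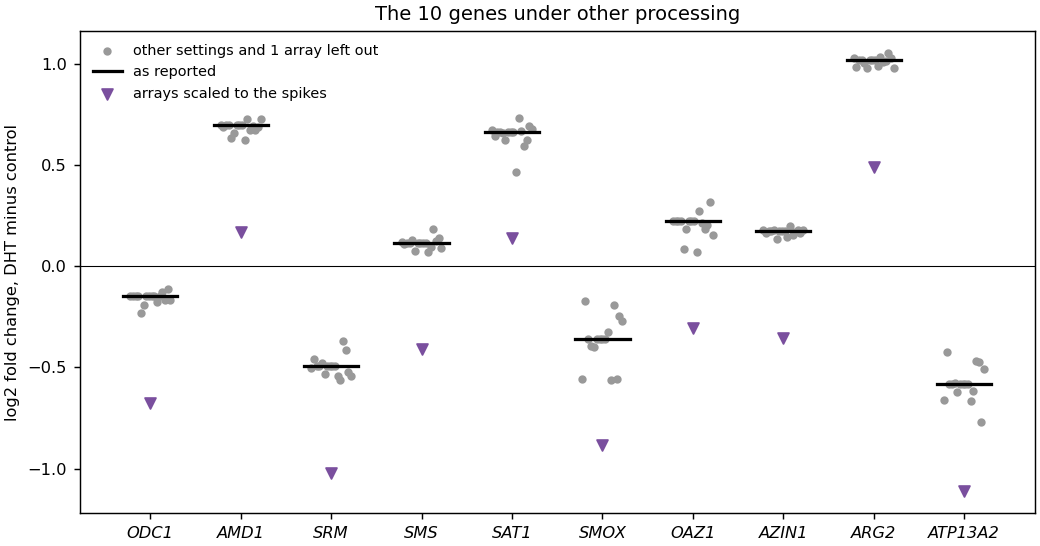
Log2 fold change of DHT minus control (y axis) of the 10 genes as reported (bars), under other processing and with 1 array left out (grey points), and with arrays scaled to the spikes (triangles). ARG2 stayed between 0.98 and 1.05 in the grey points and AMD1 between 0.63 and 0.73. Spike scaling lowers every gene, and there only ARG2, AMD1 and SAT1 lie above 0. SMS, OAZ1 and AZIN1 turn from above to below 0.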

How the data were processed

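Per the labels' protocols, total RNA of each culture was extracted with RNeasy reagents, labelled with biotin and hybridised to 1-colour Affymetrix arrays. The deposited values are linear signal intensities of all 6 arrays. MAS5 is the software named in the submitters' processing notes, without a version. Every array had a mean of 100.03 after trimming 2% at both ends, so no further scaling was applied. Of 54675 probe sets, 62 array controls were left out, as were the lowest 40% by mean log2(signal + 16), at a signal of 17.3. The other 32768 were tested on log2(signal + 16) with limma 3.58.1 in R 4.3.3 (lmFit, eBayes with an intensity trend) and Benjamini-Hochberg adjustment at 0.05. This fit was tested on simulated data whose noise followed the intensity trend, so the trend itself was not tested there. Gene names came from the platform annotation, and 41043 of 41091 single-gene probe sets matched a RefSeq gene identifier. Each gene takes the value of the probe set with the highest mean, with _x_at sets last. Intervals are 95%. Signals are given per array.

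The labels call the cultures biological replicates without saying whether they were grown separately. The limma p-values combine the spread between these 3 per group with that of other probe sets of like signal. The residual degrees of freedom were 4, and the median total with this borrowing was 11.4. The number of cultures limits the precision. The 10 genes, the 7 lists, the tests and the alternatives were chosen with earlier results of these data known. Named beyond the 10 were, per list, the genes that passed (at most 4), or else the one with the smallest p, and KLK3 and MYC as context. Alternatives were pseudocounts of 1 and 64, other filters (none, 60%), quantile, median and spike scaling, a replicate block, other variance models, averaging the probe sets of a gene, and single arrays left out (also for the RNA quality ratios, an alternative added after seeing the data). Same-numbered cultures did not deviate together (r = -0.014, -0.030 and -0.001 over probe sets, themselves not independent). Motifs were searched and figures drawn in Python 3.11.15.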

Additional observations from a re-analysis of the deposited data

How the results depend on the processing

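ARG2, AMD1 and SAT1, with 1 value per gene, passed as higher under all 16 settings other than spike scaling. None of these settings adjusted for the 3′ to 5′ ratios. Among SAT1 probe sets, 213988_s_at did not pass as reported (limma adjusted p = 0.136 over probe sets). Probe set 203455_s_at did not pass without the intensity trend (0.0849). The count of the 10 genes called lower was 2 as reported and 1 with a pseudocount of 1, no filter, equal array medians or averaged probe sets, and 0 without the intensity trend. The count of member probe sets called lower was 1 as reported, 2 with the lowest 60% removed, 3 with quantile normalisation and 0 without the trend, where 5 were higher against 6 as reported. Of the other pathway genes, 4 higher and 3 lower as reported became 0 and 0 without the trend, and 2 higher with equal medians. The share of all tested genes called in either direction was 12.9% as reported, 12.2% with a pseudocount of 1 and 7.4% with no filter. It was 18.4% with the lowest 60% removed and 12.9% with quantile normalisation. It was 10% with equal medians, 10.4% with averaged probe sets and 4.7% without the trend. With single arrays left out, member genes called higher ranged from 3 to 4 and lower from 0 to 2, member probe sets higher from 6 to 7 and lower from 0 to 2, and other pathway genes higher from 1 to 3 and lower from 1 to 2. Over all tested genes 8.16% to 9.83% were then called in either direction. Why single arrays matter was not tested. With spike scaling 2 member probe sets were higher and 9 lower, 1 member gene was higher and 7 lower, and 0 other pathway genes were higher and 17 lower, beside 0.778% of all tested genes higher and 60.9% lower, because every value is lowered by about 0.53 by construction. The values that turned negative were SMS -0.41, OAZ1 -0.30, AZIN1 -0.35 and -0.23, SAT1 -0.034 and -0.29, PAOX -0.26, SLC7A1 -0.22, ENOPH1 -0.21, ADI1 -0.17 and EIF5A -0.059. AHCY, DHPS and SLC18B1, lower as reported, still passed as lower, at -0.87, -0.98 and -1.01. With spike scaling 1.26% of calls over all genes were higher, against 54.0% with the deposited scaling, and with equal medians 45.0% were. With the replicate number as a block 3 member genes were higher and 2 lower, and the count over all genes was 889 higher and 809 lower, against 991 and 843; not every array correlated best with its own number, and no call among the 10 genes, their probe sets and the other named pathway genes changed (MYC and KLK3 were not run). SMOX was not tested with the lowest 60% removed.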
